A study of Homo sapiens with 6 samples.

Results

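Desmosomes are the spot junctions that tie the keratin filaments of neighbouring epithelial cells together, and 10 genes of this junction are described here: DSP, JUP, DSG2, DSG3, DSC2, DSC3, PKP1, PKP2, PKP3 and PERP. They were chosen by gene symbol from the 30727 genes listed in each library, and all 10 were listed. The adhesive pair is formed by desmogleins (DSG) and desmocollins (DSC), which are cadherins that span the membrane. Their tails bind plakoglobin (JUP) and the plakophilins (PKP), both armadillo proteins, and desmoplakin (DSP) joins this plaque to the keratins. PERP is a tetraspan membrane protein that sits in desmosomes of stratified epithelia and is a known target of p53 and p63. In simple epithelia such as the pancreatic duct the usual cadherin pair is DSG2 with DSC2, whereas DSG1, DSG3, DSC1 and DSC3 belong mainly to skin and other stratified epithelia. Loss of desmosomal proteins is a known part of the change of carcinoma cells towards a mesenchymal state.

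The RNA-seq libraries were of PANC-1, an established human cell line of ductal pancreatic carcinoma, which grows with a mixed epithelial and mesenchymal character. The 3 knockdown libraries came from cells given siRNA against SUV420H2, and the 3 control libraries from cells labelled only as control for the siRNA. SUV420H2, now named KMT5C, methylates lysine 20 of histone H4. Neither the siRNA sequences, nor what the control cells received, nor the interval before harvest is stated in the labels. All libraries are of this single line and separate cultures are not stated, so p-values here reflect the spread among these samples alone, and that spread may be technical.

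The knockdown libraries held 27007534 to 38022772 counted reads and the control libraries 20863594 to 25931995. KMT5C was lower in every knockdown library, at 6.03, 6.11 and 5.86 CPM (the usual depth-scaled read count, here with TMM scaling), against 9.55, 7.23 and 12.7 CPM in the controls (log2 fold change −0.72, SE 0.163, edgeR adjusted p = 0.00227; −0.50 without control replicate 3, and adjusted p = 0.305 against a 1.5-fold change, the highest of its alternatives). Control replicate 3 stood apart from the other controls on the second principal component (5.99% of the variance), so desmosome genes whose value moved with it are given below with and without it. Over all 15190 genes tested, 67.3% passed edgeR's quasi-likelihood test at an adjusted p of 0.05, 33.1% higher and 34.2% lower in the knockdown, with a median log2 fold change of −0.01. The keratins KRT7, KRT8, KRT18 and KRT19, listed as markers of a pancreatic duct carcinoma line, were present in every library. KRT7 was the lowest of them, with means of 19.0 CPM in the knockdown and 7.74 CPM in the controls. The 6 neuron and astrocyte markers, which were looked at because the extraction text also names brain cells, summed to 3.24 to 3.73 CPM in the knockdown and 8.59 to 10.2 CPM in the controls, with AQP4 at 0 reads. Of 3 tested, SYT1 (1.78 CPM in the knockdown, 8.07 CPM in the controls) and SYN1 fell and SNAP25 rose; without SYT1 the other 5 summed to 1.44 to 1.93 CPM in the knockdown and 1.28 to 1.84 CPM in the controls. SYN1 lost its call without knockdown replicate 2 or 3 or control replicate 1 or 3 (adjusted p 0.0611 to 0.131), and SNAP25 without knockdown replicate 3 or control replicate 1 (adjusted p 0.0937 and 0.111).

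Most of the desmosome genes that this line expresses were higher after SUV420H2 knockdown. Of the 10 genes, 8 had enough reads to be tested; 7 rose and 1, PKP1, fell, against 33.1% of all tested genes higher and 34.2% lower. DSP rose most (4.13-fold), followed by the cadherins DSG2 (2.68-fold) and DSC2 (2.38-fold) and by JUP (2.25-fold); these 4 passed and were at least 2-fold higher, as were 8.01% of all tested genes. PKP2 (1.88-fold), PKP3 (1.52-fold) and PERP (1.27-fold) rose less, and PKP1 was 4.37-fold lower. DSC3 and DSG3 had too few reads to be tested. The median log2 fold change of the 8 was 1.04, and this count and median cover only the genes past the count filter, which PKP1 passed through the controls alone. In bulk RNA, more cells that express a gene and more RNA per cell cannot be told apart.

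**Figure D1:**
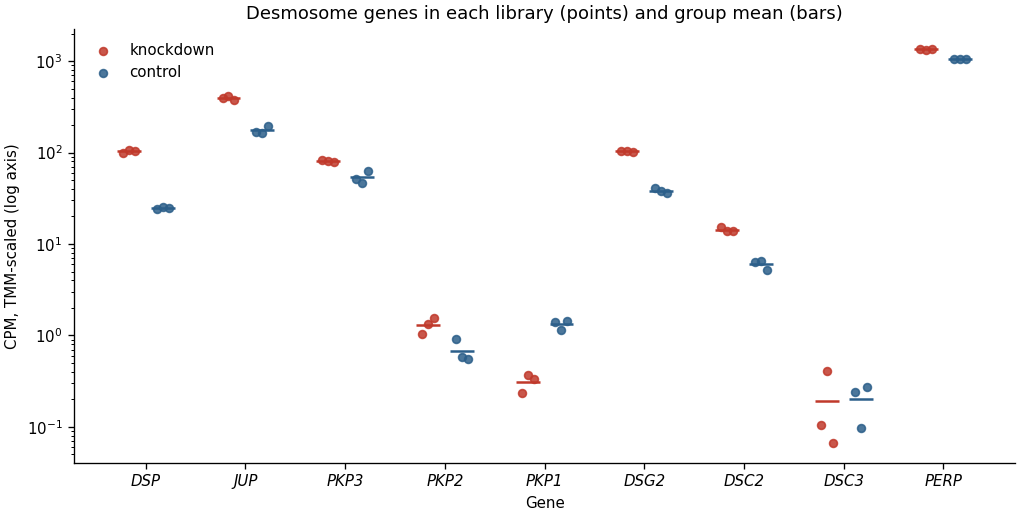
CPM (TMM-scaled, log axis) of 9 desmosome genes in each library, with knockdown libraries in red and controls in blue; bars are group means over 3 libraries. DSG3, with 1 read in all, is not drawn. The groups are apart for every gene except DSC3, and PKP1 is the gene whose knockdown points lie below its control points.

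Promoter sequences are shown for the genes with the largest changes, which were picked after their fold changes were known. The windows run from 250 bases before to 50 after each gene's start (RefSeq, GRCh38.p14), and 8 of the 10 genes had at least 1 such window; PKP2 and PKP3 had none in the table used. The E-box CACCTG, read on both strands (CAGGTG), is the sequence that the repressors ZEB1 and SNAI1 are known to bind. It was in 4 of 10 windows, those of DSP, DSG2, DSC2 (first of 2 starts) and JUP (second of 2 starts), and in none of those of DSC3, DSG3, PERP and PKP1. Of all 35116 windows, 20.6% held it, and of the windows of tested genes 18.8%. These shares are per window, whereas DSC2 and JUP had 2 windows each, of which the one with the motif is printed. A link between the motif and the changes was not tested. The 250 bases before the start are printed 5′ to 3′ on the strand of the gene, with CACCTG or CAGGTG in capitals; PKP1, the gene that fell, is printed for comparison. They lie at chr6:7541421-7541670 (DSP, plus strand), chr18:31497927-31498176 (DSG2, plus strand), chr18:31102422-31102671 (DSC2, minus strand), chr17:41785977-41786226 (JUP, minus strand) and chr1:201283256-201283505 (PKP1, plus strand).
DSP promoter: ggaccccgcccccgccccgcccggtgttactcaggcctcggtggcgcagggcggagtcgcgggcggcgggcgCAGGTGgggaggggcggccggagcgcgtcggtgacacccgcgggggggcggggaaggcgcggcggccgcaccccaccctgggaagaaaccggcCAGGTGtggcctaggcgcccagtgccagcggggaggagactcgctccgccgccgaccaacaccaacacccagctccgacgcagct
DSG2 promoter: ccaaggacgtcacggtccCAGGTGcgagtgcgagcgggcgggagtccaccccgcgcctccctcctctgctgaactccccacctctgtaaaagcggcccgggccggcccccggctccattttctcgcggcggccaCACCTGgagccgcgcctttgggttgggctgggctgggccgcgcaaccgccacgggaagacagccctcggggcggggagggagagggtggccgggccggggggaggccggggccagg
DSC2 promoter: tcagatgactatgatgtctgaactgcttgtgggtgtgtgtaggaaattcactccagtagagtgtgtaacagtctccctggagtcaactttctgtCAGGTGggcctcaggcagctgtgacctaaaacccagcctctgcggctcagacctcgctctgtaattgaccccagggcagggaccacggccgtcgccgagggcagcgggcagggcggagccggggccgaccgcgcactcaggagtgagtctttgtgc
JUP promoter: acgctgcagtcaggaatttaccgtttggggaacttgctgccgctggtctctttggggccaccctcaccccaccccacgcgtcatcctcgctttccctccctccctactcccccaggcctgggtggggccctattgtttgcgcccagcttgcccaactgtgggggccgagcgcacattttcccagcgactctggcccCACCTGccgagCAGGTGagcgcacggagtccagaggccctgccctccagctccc
PKP1 promoter: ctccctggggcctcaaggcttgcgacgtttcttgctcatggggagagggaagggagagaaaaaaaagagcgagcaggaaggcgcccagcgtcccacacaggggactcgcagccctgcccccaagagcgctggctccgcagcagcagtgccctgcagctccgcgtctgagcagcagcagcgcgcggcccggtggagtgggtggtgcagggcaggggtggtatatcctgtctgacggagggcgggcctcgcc

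Counted from the start, the motif began at −178 and −85 in DSP, −232 and −116 in DSG2, −156 in DSC2, and −54 and −43 in JUP. The looser E-box CANNTG, which includes CACCTG, was in windows of DSP, DSG2, DSG3, DSC2, JUP and PKP1. It was in 68.7% of all windows and 61.6% of those of tested genes. The DSP window had 8 matches to the GC box GGGCGG on both strands and was 77.0% G and C. PERP (5 matches, 77.0%) and DSG2 (2 matches, 76.7%) had windows of similar composition. Windows of DSC2, JUP and PKP1 also held the GC box, while those of DSC3 and DSG3 did not. At least 1 match was in 45.0% of all windows and 65.4% of those of tested genes, whose median G and C was 64.7%. The AP-1 motif TGANTCA was found once, in the PERP window at −101 (7.71% of all windows and 5.29% of those of tested genes had it). The Grainyhead-like motif AACCGGTT and the TATA box TATAAA were in none of the 10 windows. They were in 0.134% and 11.5% of all windows, and in 0.187% and 6.32% of those of tested genes. A match is a run of letters and not a measured binding site, and the counts do not show which start is used.

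Desmoplakin carried the widest gap of the genes that rose. DSP (gene ID 1832) lies on chromosome 6 of GRCh38, from 7541671 to 7586714. It had 99.3, 107 and 103 CPM in the knockdown libraries, against 24.4, 25.7 and 24.8 CPM in the controls. The 3 libraries of each group lay close together and the groups were far apart. The means were 103 ± 3.93 CPM in the knockdown and 25.0 ± 0.632 CPM in the controls (SD, n = 3 each), and on the log2 scale the difference was 2.05 (SE 0.0522, edgeR adjusted p = 2.32e-10). Of all tested genes, 333 (2.19%) had a larger log2 fold change than DSP. DSP-AS1, an antisense RNA at its 5′ end, had 16 reads in the knockdown libraries together and 10 in the controls.

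Plakoglobin is shared between desmosomes and adherens junctions, where it can take the place of beta-catenin on the cadherin tail. JUP (gene ID 3728; chromosome 17, 41754609 to 41786711) had 394, 412 and 381 CPM in the knockdown libraries, against 166, 166 and 195 CPM in the controls. All knockdown libraries were higher than all controls, and control replicate 3 was the highest of its group. On the log2 scale the difference was 1.17 (SE 0.0639, edgeR adjusted p = 4.46e-08). Without control replicate 3 it was 1.25 (SE 0.0329, edgeR adjusted p = 1.26e-21).

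The plakophilins, which lie beside plakoglobin in the plaque and help to draw desmoplakin to the membrane, did not move together. Of PKP1, PKP2 and PKP3, the last was the most abundant. PKP4, taken up below with the armadillo relatives, had a mean of 123 CPM in the knockdown and 142 CPM in the controls. PKP3 (gene ID 11187, chromosome 11, 392596 to 404908) had 82.8, 81.9 and 78.9 CPM in the knockdown libraries, against 50.9, 46.1 and 63.3 CPM in the controls. The groups did not overlap, though control replicate 3 came nearest to the knockdown. On the log2 scale the difference was 0.60 (SE 0.0922, edgeR adjusted p = 0.000153), and 0.73 without control replicate 3 (SE 0.0443, edgeR adjusted p = 5.17e-14). In a test against a 1.5-fold change the rise of PKP3 did not pass (adjusted p = 0.692; range over all alternatives 1.06e-17 to 0.692).

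PKP2, the plakophilin of heart and many simple epithelia (gene ID 5318; chromosome 12, 32790755 to 32896777), was read from few fragments: 40, 36 and 47 reads in the knockdown libraries, against 23, 12 and 14 in the controls. These are 1.04, 1.33 and 1.56 CPM in the knockdown, against 0.919, 0.578 and 0.549 CPM in the controls. The groups did not overlap, but knockdown replicate 1 and control replicate 1 were close to each other. On the log2 scale the difference was 0.91 (SE 0.255, edgeR adjusted p = 0.00851), and the ratio of summed counts was 1.87 with an exact 95% interval of 1.34 to 2.67 that covers counting error only. Without control replicate 3 it was 0.75 (edgeR adjusted p = 0.0189), and against a 1.5-fold change it did not pass (adjusted p = 0.173; range over all alternatives 0.000788 to 0.173).

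PKP1, the plakophilin of stratified epithelia (gene ID 5317; chromosome 1, 201283506 to 201332989), went the other way. It had 9, 10 and 10 reads in the knockdown libraries, although these were the deeper ones, against 35, 24 and 37 reads in the controls. On the scaled level it had 0.235, 0.368 and 0.333 CPM in the knockdown and 1.40, 1.16 and 1.45 CPM in the controls, with no overlap. On the log2 scale the difference was −2.13 (SE 0.243, edgeR adjusted p = 1.50e-05), and the ratio of summed counts was 0.226 (exact 95% interval 0.143 to 0.345, counting error only). PKP1 reached the filter in 3 control libraries and in 0 knockdown libraries. With no filter its log2 fold change was again −2.13 (edgeR adjusted p = 6.07e-12).

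Of the 7 desmosomal cadherin genes, which lie side by side on chromosome 18, only DSG2 and DSC2 had more than 17 reads in either group. DSG2, the desmoglein of simple epithelia (gene ID 1829; 31498177 to 31549008), had 104, 104 and 102 CPM in the knockdown libraries, against 41.5, 37.6 and 36.2 CPM in the controls. The knockdown libraries differed from each other by less than the controls did. The means were 103 ± 1.52 and 38.5 ± 2.70 CPM (knockdown and control, SD, n = 3 each), and on the log2 scale the difference was 1.42 (SE 0.0558, edgeR adjusted p = 4.49e-09). DSG2-AS1, an antisense RNA that overlaps the 3′ end of DSG2, moved with it (5.76 ± 0.408 CPM in the knockdown, 1.80 ± 0.293 CPM in the controls; log2 fold change 1.66, SE 0.133, edgeR adjusted p = 8.69e-07). No source says whether strand was used in counting, so reads of these neighbours cannot be told apart; those given to DSG2-AS1 numbered 547 in the knockdown and 130 in the controls, against 9861 and 2744 given to DSG2.

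DSC2, the widely expressed desmocollin (gene ID 1824; 31058840 to 31102421), stood at a lower level, with 15.3, 13.9 and 13.7 CPM in the knockdown libraries, against 6.43, 6.46 and 5.25 CPM in the controls. Every knockdown library was above every control, and control replicate 3 was the lowest library. On the log2 scale the difference was 1.25 (SE 0.0977, edgeR adjusted p = 7.10e-07), and 1.16 without control replicate 3 (SE 0.0917, edgeR adjusted p = 1.44e-11). DSC2 also overlaps DSCAS, an antisense RNA, which had 0 reads in every library.

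The cadherins of stratified epithelia had few reads or none in both groups. DSC3 (gene ID 1825; 30989365 to 31042742) had 4, 11 and 2 reads in the knockdown libraries, against 6, 2 and 7 in the controls. The groups overlapped, and the ratio of summed counts was 0.846 with an exact 95% interval of 0.397 to 1.82. That interval covers counting error only, and a change within it cannot be told from none by these counts. DSG3 (gene ID 1830; 31447741 to 31478702), the main antigen of the blistering disease pemphigus vulgaris, had 1 read in all 6 libraries, in control replicate 1. A count of 0 allows up to 3 reads, or 0.0783 to 0.110 CPM in a knockdown library and 0.118 to 0.145 CPM in a control, so no fold is given. DSC1 had 3 reads in the knockdown and 1 in the controls, DSG1 6 and 2, and DSG4 2 and 2.

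**Figure D2:**
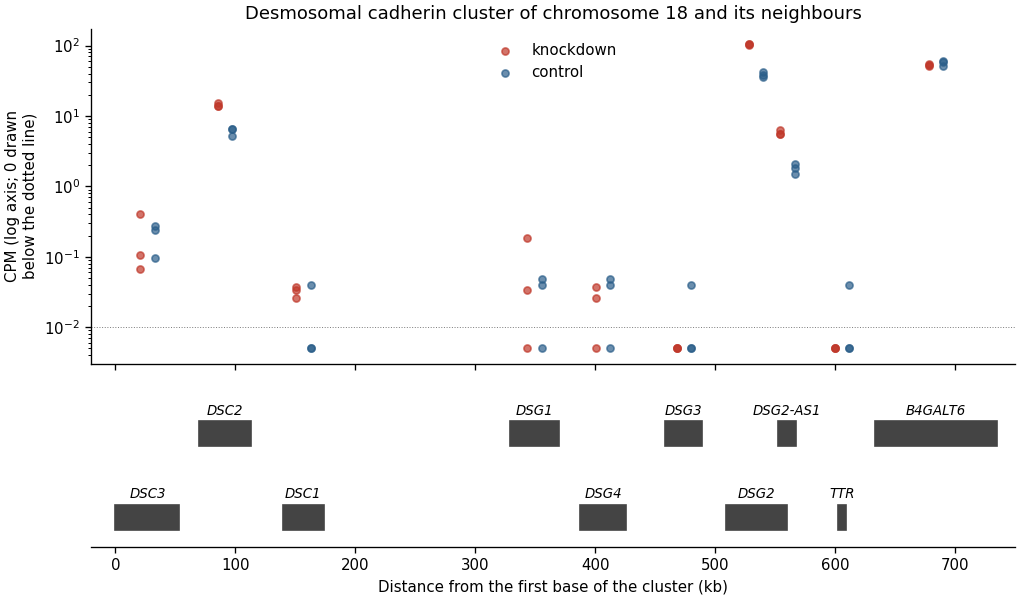
CPM (log axis) of the desmosomal cadherin genes of chromosome 18 and their neighbours in each knockdown (red) and control (blue) library, above a map to scale of gene positions in kb from the first base of DSC3; values of 0 are drawn below the dotted line, and points are set slightly beside each gene's centre. DSC2 and DSG2 with its antisense RNA are higher in the knockdown, while the genes between them stay near 0 and B4GALT6 overlaps or lies close in both groups.

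The cluster spans 560 kb, from DSC3 at its low end to DSG2 at its high end, and the 2 genes that rose are separated by DSC1, DSG1, DSG4 and DSG3. Of the nearest coding genes beyond it, B4GALT6 and CDH2 did not share the rise, while TTR and CHST9 had too few reads to tell. CDH2 and CHST9 are far off, starting at −3056 and −4083 kb from the first base of the cluster. TTR, the plasma carrier transthyretin, had 0 reads in the knockdown and 1 in the controls. B4GALT6, a galactosyltransferase, had 52.5 CPM in the knockdown and 56.7 CPM in the controls (log2 fold change −0.11, edgeR adjusted p = 0.182; −0.19 and adjusted p = 0.000289 without control replicate 3; range of its adjusted p over the alternatives 0.000289 to 1). On the other side, CDH2, the N-cadherin of mesenchymal cells, had 115 CPM in the knockdown and more, 133.7, 134.2 and 122.0 CPM, in the 3 controls (log2 fold change −0.17, edgeR adjusted p = 0.00809; adjusted p = 0.0558 without control replicate 1; range over the alternatives 1.02e-06 to 1). CHST9 had 3 reads in the knockdown and 0 in the controls.

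PERP was by far the most abundant of these transcripts and rose least among those that rose. PERP (gene ID 64065; chromosome 6, 138088505 to 138107419) had 1348, 1333 and 1370.4 CPM in the knockdown libraries, against 1068, 1059 and 1050.4 CPM in the controls. The groups were narrow and apart. On the log2 scale the difference was 0.35 (SE 0.0373, edgeR adjusted p = 8.56e-06), and 3813 tested genes (25.1%) had a larger one. Against a 1.5-fold change it did not pass (adjusted p = 1; lowest over the alternatives 4.2e-15).

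**Figure D3:**
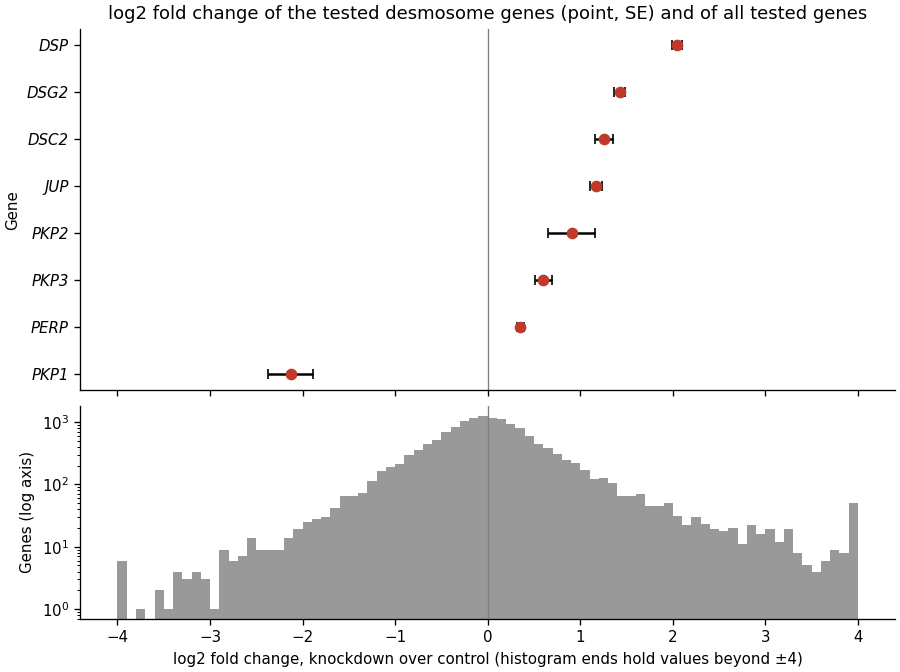
Upper panel, log2 fold change (knockdown over control) of the 8 tested desmosome genes with its SE; lower panel, the number of all tested genes (log axis) at each log2 fold change. DSP at 2.05 and PKP1 at −2.13 lie in the thin ends of the distribution, and PERP at 0.35 in its broad middle.

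The groups did not overlap in CPM for any of the 8 tested desmosome genes, nor for 71.3% of all tested genes. In a test against a 1.5-fold change, DSP, DSG2, DSC2 and JUP still rose and PKP1 still fell, against 10.6% of all tested genes higher and 9.16% lower.

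Levels were compared between the genes on the deposited RPKM, which is divided by gene length. The order in the knockdown was PERP (308 ± 4.52 RPKM), JUP (95.6 ± 3.66), PKP3 (27.4 ± 0.659), DSG2 (17.9 ± 0.251), DSP (10.4 ± 0.398), DSC2 (2.67 ± 0.160), PKP2 (0.290 ± 0.0576), PKP1 (0.0561 ± 0.0124), DSC3 (0.0244 ± 0.0236) and DSG3 (0), as mean ± SD over 3 libraries. In the controls the first 6 places were the same: PERP had 238 ± 3.73 RPKM, JUP 41.9 ± 3.69, PKP3 17.8 ± 2.81, DSG2 6.59 ± 0.500, DSP 2.49 ± 0.0709 and DSC2 1.11 ± 0.135. There PKP1, at 0.237 ± 0.0266 RPKM, came before PKP2, at 0.149 ± 0.0456 RPKM. Neighbours in the order did not overlap between libraries, except PKP1 with DSC3 in the knockdown. Among all tested genes, 40.3% had a higher RPKM than DSP in the knockdown and 69.1% in the controls.

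The 9 genes without PERP summed to 154, 159 and 150 RPKM in the knockdown libraries, against 68.2, 65.8 and 77.1 RPKM in the controls. Within each class, taken over the genes described here only, a single gene held nearly all of the transcript in both groups. DSG2 held 100% ± 0 of the summed RPKM of DSG2 and DSG3 in the knockdown and 99.97% ± 0.0566 in the controls. DSC2 held 99.1% ± 0.900 and 97.7% ± 1.23 of that of DSC2 and DSC3. PKP3 held 98.8% ± 0.267 and 97.9% ± 0.411 of that of PKP1, PKP2 and PKP3 (SD, n = 3 each). DSG1, DSG4, DSC1 and PKP4 were left out of these sums. PKP1 made up 0.203% ± 0.0463 of the RPKM of PKP1, PKP2 and PKP3 in the knockdown and 1.31% ± 0.113 in the controls. These shares are descriptions with no test.

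The proportions between the genes were also compared, with no test. The ratio of DSP to JUP in RPKM was 0.109 ± 0.00397 in the knockdown and 0.0596 ± 0.00598 in the controls, without overlap. PKP3 stood to DSP at 2.64 ± 0.134 in the knockdown and 7.18 ± 1.27 in the controls, and PERP to DSP at 29.6 ± 1.33 and 95.9 ± 2.76. The ratio of DSP to DSG2 was 0.581 ± 0.0222 in the knockdown and 0.379 ± 0.0317 in the controls. Within the cadherin pair, DSG2 over DSC2 stood at 6.72 ± 0.364 in the knockdown and 5.95 ± 0.502 in the controls, which overlapped between libraries.

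**Figure D4:**
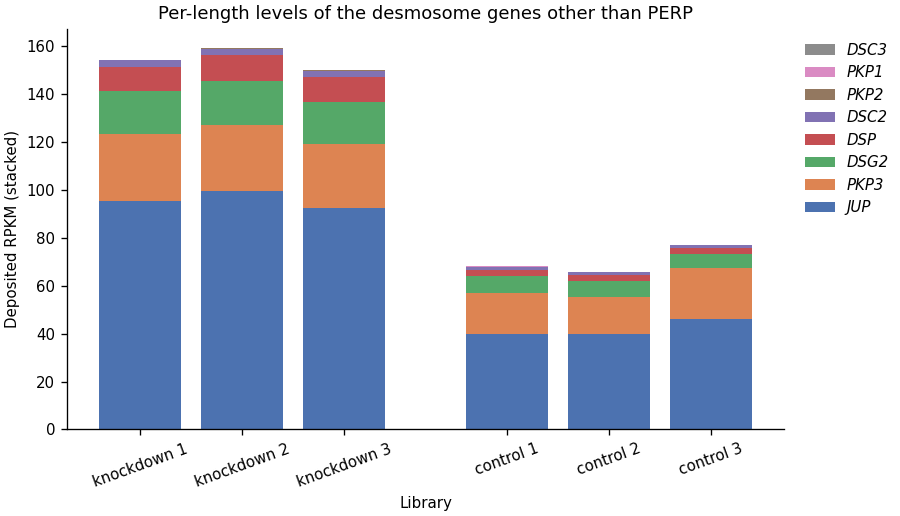
Deposited RPKM of the desmosome genes other than PERP and DSG3, stacked for each knockdown (left) and control (right) library. The knockdown columns reach 150 to 159 RPKM and the control columns 65.8 to 77.1 RPKM, with JUP as the largest block in all and DSP and DSG2 as taller blocks in the knockdown.

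Among 16 transcription factors known to act on desmosomal or epithelial genes, 12 were tested, of which 9 rose, 1 fell and 2 did not pass (median log2 fold change 1.54, against −0.01 over all tested genes, of which 33.1% were higher and 34.2% lower). The epithelial factor ELF3 had 112 ± 3.10 CPM in the knockdown and 14.6 ± 0.850 CPM in the controls (log2 fold change 2.94, SE 0.0578, edgeR adjusted p = 4.84e-11). GRHL3, a Grainyhead-like factor of barrier epithelia, had 86.0 ± 2.67 and 10.5 ± 0.976 CPM (knockdown and control; 3.02, SE 0.0692, edgeR adjusted p = 1.13e-10), and KLF4 rose by 1.53 (SE 0.0633). ZEB1 was the member that fell, with 32.1, 32.7 and 31.1 CPM in the knockdown libraries, against 51.0, 52.5 and 47.0 CPM in the controls (−0.65, SE 0.0587, edgeR adjusted p = 2.26e-06). SNAI1 moved the other way, with 14.3, 13.4 and 13.3 CPM in the knockdown libraries, against 9.67, 10.7 and 11.3 CPM in the controls (0.38, SE 0.0815, edgeR adjusted p = 0.00170). Neither ZEB1 nor SNAI1 passed against a 1.5-fold change. OVOL1 and OVOL2 were among those that rose but reached the count filter through the knockdown libraries alone. TP63, which drives PERP and other desmosomal genes in skin, had 23 reads in the knockdown and 29 in the controls and was not tested, and GRHL2 had 11 and 4. The part of any of these factors in the levels of the desmosome genes was not tested.

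Keratins are the filaments that desmoplakin holds. Of 13 keratin genes 6 were tested; 4 rose, 1 fell and 1 did not pass (median 1.41; all tested genes, 33.1% higher and 34.2% lower). KRT80 had 522 ± 5.33 CPM in the knockdown and 144 ± 6.94 CPM in the controls (log2 fold change 1.86, SE 0.0454, edgeR adjusted p = 1.74e-10). KRT18 rose by 1.57 (SE 0.0602) and its partner KRT8 by 1.54 (SE 0.0691); both have many processed pseudogenes, so their counts are uncertain. The member that fell was KRT19, with 760.2, 724 and 719 CPM in the knockdown libraries, against 855, 827 and 1064 CPM in the controls (−0.32, SE 0.0806, edgeR adjusted p = 0.00472). Without control replicate 3, the highest library, its difference was −0.20 (edgeR adjusted p = 6.64e-07), and it did not pass against a 1.5-fold change (adjusted p = 1, the highest of its alternatives). The basal keratins KRT5 and KRT14, partners of desmosomes in skin, had 14 and 6 reads in the knockdown, against 6 and 6 in the controls.

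Of 8 other genes of the desmosome and its plaque 5 were tested; 3 rose, 1 fell and 1 did not pass (median 0.20; all tested genes, 33.1% higher and 34.2% lower). KAZN, which encodes the periplakin-binding protein kazrin, had 16.3 ± 0.527 CPM in the knockdown and 7.22 ± 0.292 CPM in the controls (log2 fold change 1.17, SE 0.0760, edgeR adjusted p = 1.66e-07). The plakin EVPL fell to 42.2 ± 2.43 CPM in the knockdown, against 71.1 ± 6.89 CPM in the controls (−0.75, SE 0.0724, edgeR adjusted p = 3.70e-06), while its relative PPL stood at 0.23 (SE 0.0458, edgeR adjusted p = 0.00102). Of 5 armadillo relatives 4 were tested, with ARVCF (0.84, SE 0.103), CTNND1 (0.26, SE 0.0411) and CTNNB1 (0.25, SE 0.0436) higher and PKP4 (−0.20, SE 0.0433) lower in the knockdown. Of these 4 only ARVCF passed against a 1.5-fold change.

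**Figure D5:**
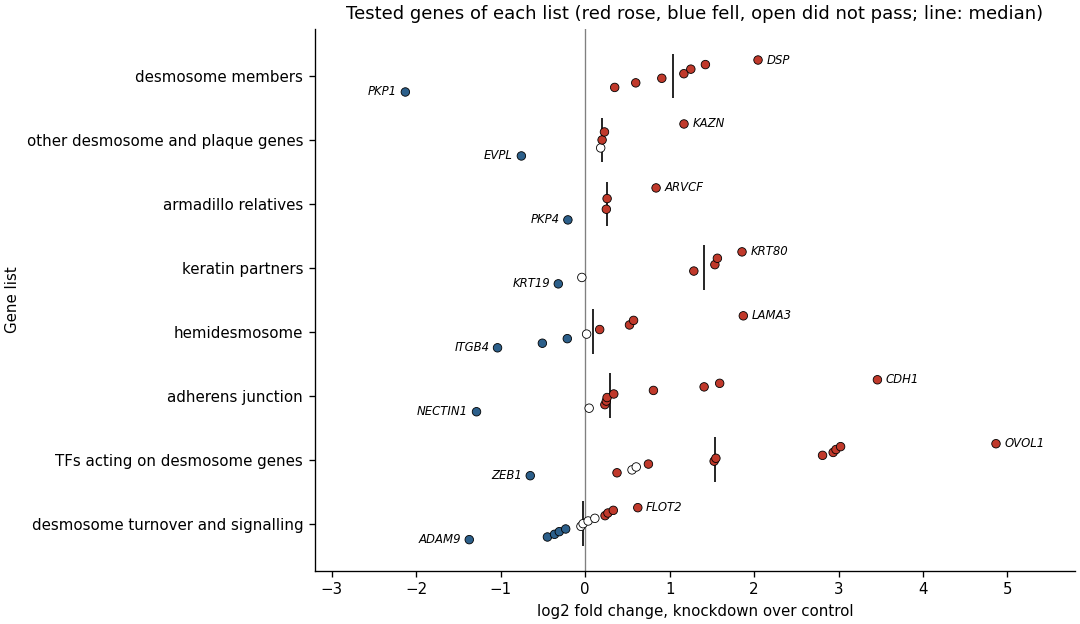
log2 fold change (knockdown over control) of each tested gene, by list; red genes rose, blue genes fell and open genes did not pass, and the line is the list's median. The desmosome genes reach from PKP1 at −2.13 to DSP at 2.05, and hemidesmosome and turnover genes lie on both sides of 0.

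The junctions beside the desmosome were adherens junctions and hemidesmosomes. Of 11 adherens junction genes 10 were tested; 8 rose, 1 fell and 1 did not pass (median 0.30), beside 33.1% higher and 34.2% lower over all tested genes. CDH1, E-cadherin, had 378 ± 5.00 CPM in the knockdown and 34.4 ± 0.794 CPM in the controls (log2 fold change 3.46, SE 0.0447, edgeR adjusted p = 1.80e-12), CDH3, P-cadherin, rose by 1.59 (SE 0.0773), and VCL, vinculin, by 0.81 (SE 0.0395). Hemidesmosomes tie keratin to the matrix below the cell and share no member with the desmosome list. Of 9 of their genes 8 were tested; 4 rose, 3 fell and 1 did not pass (median 0.10), against 33.1% higher and 34.2% lower over all tested genes. LAMA3, a laminin chain, rose by 1.87 (SE 0.0810), and the integrin chains moved in opposite directions, ITGA6 by 0.53 (SE 0.0457) and ITGB4 by −1.04 (SE 0.0646).

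Of 17 genes of desmosome turnover and signalling 13 were tested; 4 rose, 5 fell and 4 did not pass (median −0.02), where 33.1% of all tested genes were higher and 34.2% lower. ADAM9, a membrane protease, fell to 97.4 CPM in the knockdown, against 252 CPM in the controls (log2 fold change −1.37, SE 0.0523, edgeR adjusted p = 3.68e-09). ADAM17, a protease known to shed the outer part of DSG2, was lower (−0.36, SE 0.0479) and FLOT2, a flotillin that binds desmogleins, was higher (0.62, SE 0.0471). The desmosome-cutting kallikreins KLK5, KLK6 and KLK7 had 2, 4 and 1 reads in the knockdown and 0, 2 and 2 in the controls.

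The tested genes whose profile over the 6 libraries lay nearest to that of DSP (Euclidean distance of log2 CPM centred on each gene's mean, over 12265 genes with mean log2 CPM of at least 1) were SEMA7A, IL6R, RAB3B, DDAH1 and ANKRD33B, with log2 fold changes of 2.03, 1.96, 1.96, 1.99 and 1.97. Among the desmosome genes DSG2 was nearest to DSP, at place 199, followed by DSC2 at 353 and JUP at 397. With 2 groups of 3, this measure mostly ranks genes by the size of the difference between groups.

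Markers of other cell types were summed in each library, and their part in the results above was not tested. Calls among them stand beside 33.1% of all tested genes higher and 34.2% lower in the knockdown. The 12 stratified squamous markers summed to 45.1 to 47.6 CPM in the knockdown and 42.4 to 54.0 CPM in the controls. Most of this was KRT10, with means of 40.5 CPM in the knockdown and 41.9 CPM in the controls. Of 4 tested TGM1 passed, though not without knockdown replicate 2 or 3 or control replicate 2 or 3 (edgeR adjusted p 0.0700 to 0.141). Among those not tested, KRT4 had 45 reads in the knockdown and 4 in the controls. IVL, the envelope protein involucrin, had 2 and 4 reads. The 6 fibroblast markers summed to 15.5 to 16.7 CPM in the knockdown and 8.91 to 9.45 CPM in the controls, with DCN at 1 and 0 reads; of 3 tested, PDGFRB rose, and COL14A1 passed too but was tested only through the knockdown libraries, where it is higher (53 reads, against 17 in the controls), and lost its call by DESeq2 (adjusted p = 0.0559) and against a 1.5-fold change (adjusted p = 0.0767, the highest of its alternatives). The 6 endothelial markers summed to 4.23 to 4.68 and 1.08 to 1.25 CPM, with the single one tested, ESAM, higher and PECAM1 at 2 reads in the knockdown and 1 in the controls. The 6 leukocyte markers summed to 3.76 to 4.49 and 2.22 to 3.02 CPM, with 1 of 2 tested higher and PTPRC at 2 and 1 reads. The 6 cardiac markers, of another tissue rich in desmosomes, summed to 9.09 to 9.77 and 4.91 to 5.996 CPM, with 1 of 2 tested higher and TNNT2 at 0 and 2 reads.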

How the data were processed

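Each deposited file lists, per the file headers, the count of reads aligned uniquely to each gene model and an RPKM adjusted by the authors with a size factor. Per the submitters' processing notes, reads were aligned with GSNAP to GRCh38; no source names their versions, the annotation, the strand setting or the filters. Unique alignment lowers genes with near-identical copies. Dividing RPKM by count left only a library factor and a gene factor, so all tests used the deposited counts and RPKM served only to compare levels between genes. Symbols came from RefSeq (GRCh38.p14) for 27814 of 30727 gene IDs.

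Groups follow the siRNA label, replicates are numbered only to name them, and the labels give no batch. No libraries were identical. Counts were filtered with filterByExpr (minimum count 10, total 15; 15190 genes left), scaled by TMM and tested in edgeR 4.0.16 (glmQLFTest, two-sided, R 4.3.3), with Benjamini-Hochberg adjustment over all genes tested and a threshold of 0.05. The test was first run on simulated data. A low-count gene's precision is limited by its reads, and intervals are exact 95% intervals that cover counting error only. The members and lists were chosen with earlier results of these data known. Named genes were the 10 members, KMT5C, the chromosome 18 neighbours, the 3 tested genes of smallest p in each list with ZEB1 and CDH1, and the 5 genes nearest to DSP; other list genes were named after their values were seen, and some list genes are not reported here by name. Alternatives were DESeq2 1.42.0 (size factors, Wald test), upper-quartile scaling, other filters, limma-voom (limma 3.58.1), glmTreat against 1.5-fold, thinning to 20863594 reads, and leaving out each library.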

Additional observations from a re-analysis of the deposited data

How the results depend on the processing

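Under every alternative that tested them, the 8 desmosome genes kept the direction of their difference, and all stayed past the threshold except PKP2, PKP3 and PERP against a 1.5-fold change. KMT5C, ZEB1, SNAI1, PPL, CTNND1, CTNNB1, PKP4, KRT19, ITGA6, FLOT2, ADAM17 and CDH2 did not pass it either. That test asks for a larger change and gave 2998 genes over the whole table (1606 higher, 1392 lower), where 10216 had passed. It left 5 of the 8 desmosome genes, 2 of 4 other desmosome and plaque genes, 1 of 4 armadillo relatives, 2 of 7 hemidesmosome genes, 5 of 9 adherens junction genes and 1 of 9 turnover and signalling genes. The remaining 119 recounts, of all genes, the desmosome genes and the 7 pathway lists, lay within 1.5 times; calls over the marker lists were not recounted. Leaving out each library gave 9184 to 11277 genes in all and 8 desmosome genes each time. Log2 fold changes ranged from 2.02 to 2.08 for DSP, 0.75 to 1.20 for PKP2 and −2.25 to −1.93 for PKP1. By reads in place of RPKM, the share of PKP1 among PKP1, PKP2 and PKP3 was 0.377% in the knockdown and 2.42% in the controls. PKP1 and PKP2 were not tested at a mean log2 CPM of at least 1. No paired analysis was possible because the labels give no replicate numbers. Depth limits DSC3, DSG3 and the other cadherins of stratified epithelia.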

Other observations

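Among the stratified cadherins, the few reads of DSG1 and DSC3 fell unevenly over the knockdown libraries. DSG1 had 0, 5 and 1 reads in knockdown replicates 1, 2 and 3, and DSC3 had 4, 11 and 2, so replicate 2 held the most of both although its total was the lowest of its group. By reads not scaled for depth, DSC1 (1, 1 and 1 in the same libraries) and DSG4 (1, 1 and 0) did not show this. DSG3 had 0 in each. Over all genes listed, replicate 2 also had the most with at least 1 read, 21375, against 21205 in replicate 1 and 21266 in replicate 3. No test was made of so few reads, so a trait of these genes cannot be told from a trait of the library.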
